A study of Mus musculus with 9 samples.

Results

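Id1, Id2 and Id3, which encode inhibitors of helix-loop-helix transcription factors, were examined together with 6 genes of the bone morphogenetic protein (BMP) pathway that acts upstream of them: the receptor genes Bmpr1a, Bmpr2 and Acvr1 and the signal transducer genes Smad1, Smad4 and Smad5. They were picked by symbol from the authors' deposited table of reads per gene, and all 9 were found among its 20467 genes. Their values in Roquin immunoprecipitates (IPs) were known when they were picked, so those values are given as a description. Which of the genes passed a fit across all genes is stated, but no p is given for them and nothing is read from their number.

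The libraries came from RAW264.7 cells, a macrophage-like mouse line derived from a tumour induced by a leukaemia virus, and all cells had received lipopolysaccharide (LPS), a bacterial cell wall component that activates macrophages, at 100 ng/ml for 2 h. The Roquin IP group (3 libraries) was made with rabbit polyclonal antibodies on protein A/G beads, the control IP group (3 libraries) with those beads and no antibody, and the input group (3 libraries) from lysate RNA taken ahead of the IP. RNA that the antibodies held through a protein other than Roquin therefore cannot be told apart from RNA held by Roquin. No untreated cells were included, and nothing beyond the term biological replicate says whether the libraries of a group came from separate cultures, so p-values measure the spread between these samples only.

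A BMP ligand brings together type I receptors, such as those encoded by Bmpr1a and Acvr1, and a type II receptor such as that of Bmpr2. The activated type I receptor phosphorylates SMAD1 and SMAD5, which join SMAD4 and enter the nucleus, where the Id genes are among the best known targets. Id proteins have a helix-loop-helix but no DNA-binding region, and hold E proteins, the products of Tcf3, Tcf4 and Tcf12, away from DNA. Roquin, an RNA-binding protein with the paralogous genes Rc3h1 and Rc3h2, recognises stem-loops with a triloop in 3′ untranslated regions (UTRs), such as the constitutive decay element (CDE) of Tnf mRNA, and brings in the deadenylase machinery.

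Totals ran from 1799390 to 12975767 reads per library, and Tnf, the best known Roquin target, held 17.6% to 27.2% of the reads in Roquin IP against 0.143% to 0.516% in the other libraries. Levels are in CPM (counts per 1e+06 reads, after each library size was multiplied by a TMM composition factor), and 1 CPM stood for 2.02 to 11.7 counts. Levels are relative within a library, so fewer cells and less RNA per cell cannot be told apart. Of 10 macrophage markers, 8 had counts in the input, Mertk had 0 counts and Spi1 was not found under that symbol; their summed level was 1230 to 2010 CPM in Roquin IP, with control IP at 1000 to 1600 and the input at 1110 to 1680. The fibroblast, epithelial and endothelial lists each summed to at most 1.18 CPM in any library, with Col1a1 and Epcam at 0 counts in the input, as was the T cell gene Cd3e.

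The authors' deposited table predicted a CDE, in the class of conserved 3′ UTR elements, for Bmpr1a alone of the 9 genes, and put Id1, Id2, Id3 and the other 5 in the class without a CDE. The stem-loops that the annotated 3′ UTRs hold are shown first, since Bmpr1a and the Id mRNAs were all called higher over control IP but differ in that class. Sequences were read from the GENCODE M21 transcripts (build GRCm38, which may not be the build the authors used), in the longest annotated 3′ UTR of each gene, on the sense strand. The 3 bases of the loop are in capitals, with 12 bases on each side.
Bmpr1a: agtggtgctttcTGTgaaagccttaag
Tnf: agacatgttttcTGTgaaaacggagct
Bmpr2: tcaagagttttcTATgaataagtgtaa
Id1: ttttgtattgtaTATtacaatgatcac
Id2: tgctaaacttttTATaaaagtttagtt
Id3: tattaaacttttTATaaaagttaacat

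The Bmpr1a element lies at chr14:34414158-34414184 on the minus strand, with its loop at base 372 of a 3′ UTR of 3810 bases, and Tnf, shown as the reference element, has its own at chr17:35199579-35199605 on the minus strand. Both match the CDE core searched here, which is TTC, a loop of pyrimidine, purine and pyrimidine, and GAA, and both have 6 Watson-Crick pairs next to the loop. From the TTC to the GAA, the 9 bases of Bmpr1a and Tnf are identical. That core was present in the longest 3′ UTR of 6.60% of 9458 genes, and a strict form with 2 further stem pairs, Watson-Crick or G-T, in 1.46%. Bmpr2 also holds a core, at chr1:59877438-59877464 on the plus strand, but with 3 Watson-Crick pairs it does not meet the strict form, and it lies at base 6965 of 8529. Acvr1, Smad1, Smad4, Smad5 and the Id genes had no core in the longest 3′ UTR or in any annotated transcript.

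The 3′ UTRs of Id1, Id2 and Id3 each hold 1 stem of at least 6 uninterrupted Watson-Crick pairs closing the loop TAT, which has the pyrimidine, purine, pyrimidine order of the CDE loop on a stem without its TTC and GAA. This narrow form was noticed in the sequences of these genes and was not itself in the list of patterns to search. The list held a wider class that takes it in, a loop of pyrimidine, purine and any base on 6 pairs. That class, with at most 1 G-T pair allowed, was in 43.6% of the 9458 3′ UTRs. In Id1 the stem has 6 pairs (chr2:152737309-152737335, plus strand, loop at base 474 of 563). Id2 has 10 pairs (chr12:25093982-25094008, minus strand, base 588 of 785) and Id3 has 7 (chr4:136145335-136145361, plus strand, base 491 of 536). The 15 bases from 6 before to 6 after the loop are the same in Id2 and Id3, and of 9458 longest 3′ UTRs only those of these 2 genes hold that run. A TAT loop on 6 such pairs was found in 262 of the 9458 3′ UTRs, or 2.77%, and in 24 (1.28%) of the 1868 that are 400 to 900 bases long, the range that takes in the Id genes. Each Id 3′ UTR also holds 1 other triloop on 6 or more pairs, with the loop TTT in Id1, ACC in Id2 (9 pairs) and TAA in Id3. None of Bmpr1a, Bmpr2, Acvr1, Smad1, Smad4 and Smad5 holds a TAT loop on 6 pairs. With 5 pairs in place of 6, the TAT loop was in 4 of the 9 genes, so not in the Id genes alone. A match describes letters in a window and does not show that Roquin binds there.

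The 3′ UTRs of the Id genes are short, at the 21.1 to 30.9 percentile of the genes with an annotated one, while those of Bmpr1a (89.7), Smad5 (95) and Bmpr2 (99.3) are long. The pentamer ATTTA, the core of AU-rich decay elements, occurs 3 times in the 3′ UTR of Id2, 8 times in Bmpr1a and 35 times in Bmpr2, and 0 times in Id1 and Id3. It occurs 6 times in Acvr1, 5 in Smad1, 2 in Smad4 and 6 in Smad5, and 72.0% of all longest 3′ UTRs hold it.

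Roquin IP was set against control IP to ask which mRNAs the antibodies recovered beyond those held by beads. All 3 Id mRNAs and Bmpr1a were 25.8 to 68.3 times higher in Roquin IP, Bmpr2 was 4.23 times higher, and Acvr1 and the 3 SMAD mRNAs did not pass. Counts were fitted with edgeR's quasi-likelihood test over all 9 libraries and 9567 genes, and a gene was called at a Benjamini-Hochberg adjusted p under 0.05 over all of them. On that rule 5 of the 9 genes were higher and 0 lower, where 3.76% of all genes tested were higher and 0 genes were lower. edgeR at an unadjusted p under 0.05 counted 5 of the 9 genes higher and 0 lower, as did DESeq2 after adjustment. Of all 9567 genes tested, the first counted 759 higher and 204 lower, and the second 475 and 6. As the 9 genes were picked with these values in view, nothing is read from their share.

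**Figure D1:**
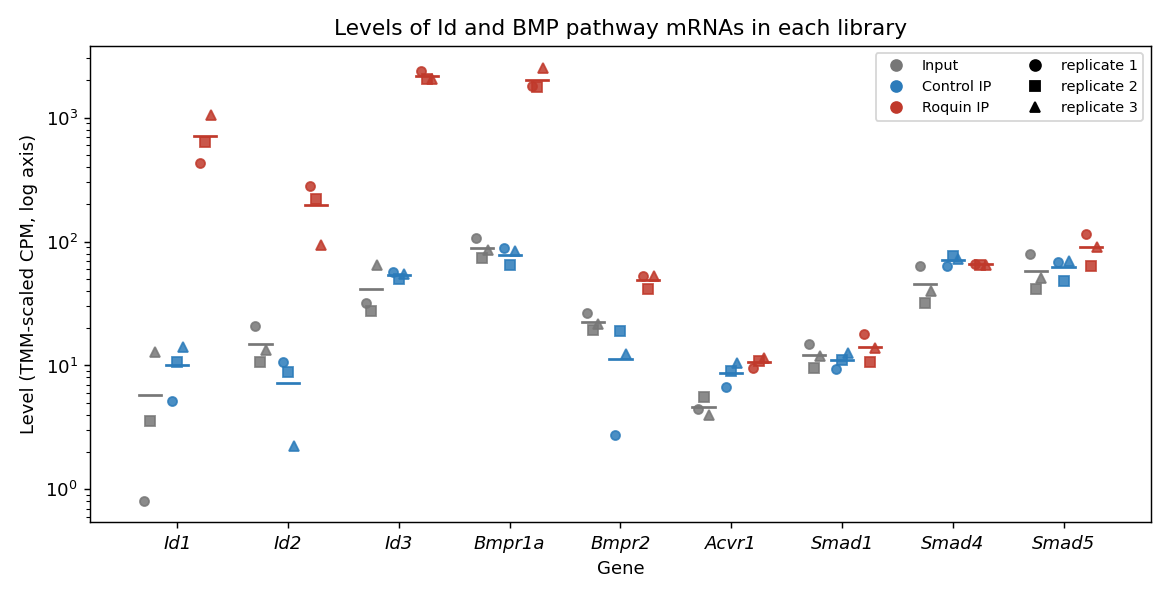
Level of each gene (TMM-scaled CPM, log axis) in the 9 libraries; colours give the group, symbols the replicate number and bars the group mean. The Roquin IP points of Id1, Id2, Id3 and Bmpr1a lie well above both other groups, while the groups of Smad1 and Smad5 overlap.

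Id3 was the most abundant of the Id mRNAs per kilobase of transcript. Its level was 2389, 2056 and 2045 CPM in Roquin IP 1, 2 and 3. Control IP had 56.6, 50.1 and 54.8 CPM, and the input 31.7, 27.6 and 64.9. The Roquin IP libraries lay close together and far above the others, at a mean of 2164 ± 195.6 CPM against 53.8 ± 3.35 in control IP (SD, n = 3). The log2 fold change was 5.33 (SE 0.38).

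Id1, a classical BMP-induced gene, rested on few reads outside Roquin IP. It was at 428.3, 638.3 and 1053 CPM in Roquin IP. Control IP had 5.17, 10.8 and 14.2 CPM, and the input 0.813, 3.55 and 12.9. Every Roquin IP library was above every other one, and within each group replicate 3 was the highest. The mean was 706.5 ± 317.8 CPM in Roquin IP and 10.0 ± 4.54 in control IP (SD, n = 3), a log2 fold change of 6.09 (SE 0.65).

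Id2, known for its part in the development of natural killer and dendritic cells, was the least abundant of the 3 in Roquin IP per kilobase. It was at 281.3, 219.0 and 94.6 CPM in Roquin IP. Control IP had 10.6, 8.80 and 2.23 CPM, and the input 20.7, 10.7 and 13.4. The groups did not overlap, and replicate 3 was the lowest in both IPs, the opposite of Id1. The log2 fold change was 4.85 (SE 0.57), and the means were 198.3 ± 95.1 CPM in Roquin IP and 7.22 ± 4.42 with beads alone (SD, n = 3).

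Bmpr1a is the type I receptor gene with the predicted CDE. Its values were 1791, 1751 and 2529 CPM in Roquin IP. Control IP had 88.2, 64.2 and 83.2 CPM, and the input 107.3, 74.2 and 86.1. Control IP and input overlapped and Roquin IP stood above both, 4.69 higher than control IP on the log2 scale (SE 0.32). Its exons overlap those of Gm17110 on the opposite strand, and since no source used here gives the strand handling, its counts are uncertain to that extent. Among the genes of the conserved 3′ UTR class in the authors' deposited table, 23 of 37 tested were higher in Roquin IP, with a median log2 fold change of 2.48, against 329 of 9437 and -0.13 in the class without a CDE, to which the Id genes belong.

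Bmpr2, the type II receptor gene, was at 53.2, 41.4 and 52.9 CPM in Roquin IP. Control IP had 2.74, 19.0 and 12.4 CPM, and the input 26.4, 19.3 and 21.8. Roquin IP was above both other groups, and control IP 1, with 9 counts, was far below the rest. Relative to control IP the log2 fold change was 2.08 (SE 0.47), and 1.66 without control IP 1, where it was still called. Bmpr2 was not called without Roquin IP 1 (2.03) or 3 (2.02), without the third control library (2.14), or with library size alone in place of TMM factors (1.23).

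Acvr1, the other type I receptor gene, had 9.63, 10.9 and 11.5 CPM in Roquin IP against 6.69, 9.00 and 10.4 in control IP, and the groups overlapped. The BMP-specific transducers Smad1 and Smad5 had log2 fold changes of 0.34 (SE 0.37) and 0.53 (SE 0.32), and the common partner Smad4 of -0.12 (SE 0.29). All 4 also overlapped between those groups, and their 95% intervals of the log2 fold change, -0.58 to 1.15 for Acvr1, -0.46 to 1.13 for Smad1, -0.16 to 1.22 for Smad5 and -0.73 to 0.49 for Smad4, leave out the changes of the Id mRNAs. In Smad4 the Roquin IP libraries were at 66.2, 65.2 and 65.0 CPM and those of control IP at 63.2, 77.1 and 72.6. The Roquin IP libraries all lay above the control IP libraries for 5 of the 9 genes and for 10.7% of all genes tested, and all below for 0 of the 9 and for 8% of all. With library size alone the median over all genes tested moved from -0.12 to -0.96, Acvr1 (-0.56), Smad1 (-0.50) and Smad5 (-0.30) changed sign, and Smad4 was called lower (-0.96). An exon of Smad5 overlaps Gm27301 on the same strand.

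The authors' deposited table put the 9 genes in the same order. It holds the counts of the same libraries fitted here, so the shared order is no separate evidence. Its ratio of Roquin IP to control IP, linear although headed log2, was 71.6 for Id1, 40.7 for Id3, 27.8 for Id2, 26.1 for Bmpr1a and 4.42 for Bmpr2. For Smad5, Smad1, Acvr1 and Smad4 the authors' deposited table gave 1.47, 1.30, 1.25 and 0.94.

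Libraries with the same replicate number deviated together from their group means, so ratios were also taken within a number. The Roquin IP to control IP ratio of Id1 was 82.9, 59.3 and 74.4 in replicates 1, 2 and 3, that of Id3 was 42.2, 41.0 and 37.3, and that of Id2 was 26.4, 24.9 and 42.4. In Roquin IP the coefficient of variation of the level was 45.0% for Id1 and 48.0% for Id2, against 9.04% for Id3. Bmpr1a had ratios of 20.3, 27.3 and 30.4. Bmpr2 had 19.4, 2.18 and 4.28, so replicate 1 stood apart. With the replicate number as a block the same 5 genes were called, at log2 fold changes of 6.17 for Id1, 4.87 for Id2, 5.34 for Id3, 4.69 for Bmpr1a and 2.14 for Bmpr2.

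**Figure D2:**
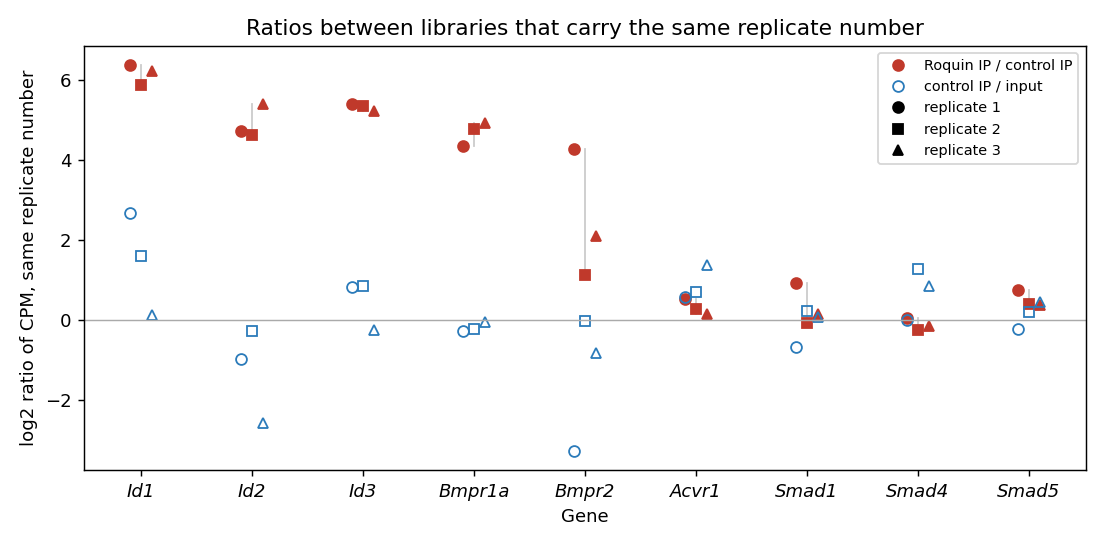
log2 ratio of CPM between libraries of the same replicate number, for Roquin IP over control IP (filled) and control IP over input (open), per gene; symbols give the replicate number and grey lines the range. The filled points of Id1, Id2, Id3 and Bmpr1a all lie above 4 with little spread, whereas those of Bmpr2 run from 1.12 to 4.28.

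Against the input, which asked what was enriched relative to the lysate and shares the Roquin IP libraries with the comparison above, Id1, Id3, Bmpr1a and Id2 were again called and Bmpr2 was not. Their log2 fold changes were 7.00 (SE 0.71), 5.71 (SE 0.39), 4.50 (SE 0.32) and 3.73 (SE 0.55). That was 4 of 9 genes higher and 0 lower, where 5.45% of all genes tested were higher and 2.79% lower. edgeR at an unadjusted p under 0.05 counted 6 of the 9 higher and 0 lower, and DESeq2 after adjustment 4 and 0. Of all 9567 genes tested, the first counted 1157 higher and 1025 lower, and the second 709 and 535. The size of the Id1 change rested on Input 3. Id1 had 2, 9 and 26 counts in Input 1, 2 and 3, with exact 95% Poisson intervals of 0.0985 to 2.94, 1.62 to 6.74 and 8.41 to 18.9 CPM that cover counting error only, and without Input 3 its log2 fold change was 8.32. A single fold over the lysate is therefore less certain for Id1 than for Id3 or Bmpr1a.

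Bmpr2 (1.12, SE 0.47) and Acvr1 (1.19, SE 0.44) lay above the input in all 3 Roquin IP libraries without being called. Smad4 did so too (0.53, SE 0.29), so that 7 of the 9 genes lay above in every library, as did 16.5% of all genes tested, and 0 of the 9 lay below in every library, as did 14.4%. Bmpr2 was called without a filter on low counts (1.14) or without control IP 1 (1.13). Smad1 (0.21, SE 0.38) and Smad5 (0.64, SE 0.33) overlapped with the input, and Smad5 was called with the replicate block (0.65). Smad1, Smad4 and Smad5 changed sign with library size alone (-0.52, -0.21 and -0.09).

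**Figure D3:**
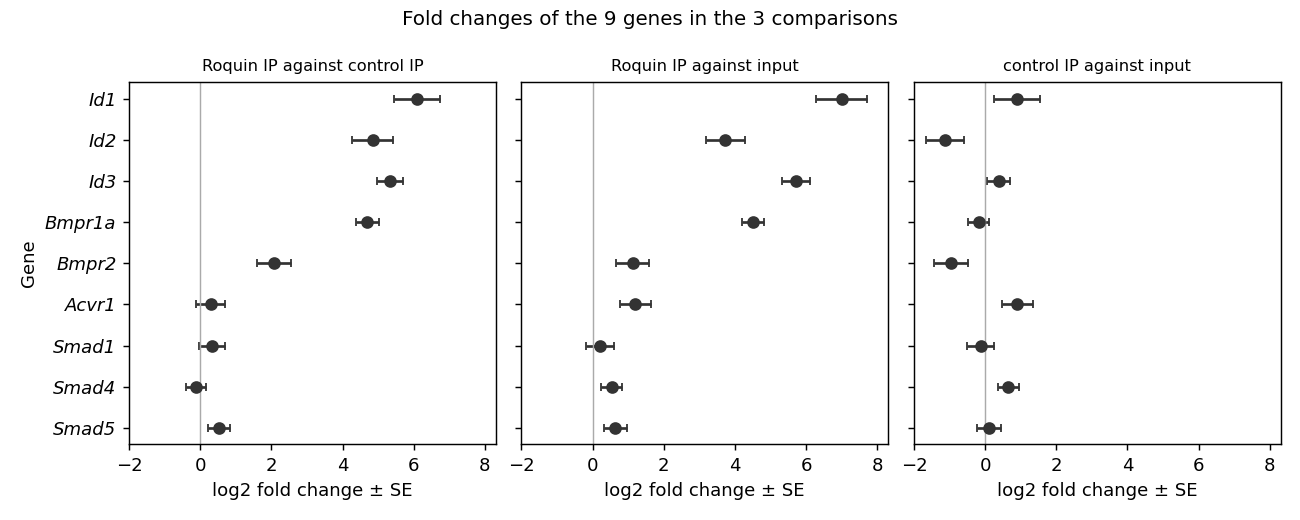
log2 fold change with its SE (edgeR, 9 libraries) of each gene in Roquin IP over control IP, Roquin IP over input and control IP over input. Id1, Id2, Id3 and Bmpr1a lie at 3.73 or higher in both Roquin IP panels, and all genes lie between -1.13 and 0.90 in the control IP panel.

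What beads alone retained was measured by setting control IP against the input, a comparison whose fold change did not choose the genes. It is not independent of the choice, since both groups also entered the Roquin IP comparisons known at that time, and its p-values support nothing further. None of the 9 genes was called by edgeR (0 higher, 0 lower), where 0.815% of all genes tested were higher and 0.303% lower on the beads. At an unadjusted p under 0.05, 1 of the 9 passed in edgeR, Smad4 (0.65, SE 0.29, adjusted p = 0.228), and DESeq2 called 0 after adjustment. Of all 9567 genes tested, the first counted 1036 higher and 912 lower, and the second 398 and 390. The log2 fold change was 0.90 for Id1 (95% interval -0.47 to 2.27, adjusted p = 0.461), 0.38 for Id3 (-0.31 to 1.08, 0.549) and -0.18 for Bmpr1a (-0.79 to 0.42, 0.766), all by edgeR. Id1 was at 2.18 without Input 3, with an adjusted p of 0.110.

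Of the 9 genes, Id2 was the one whose call on the beads changed with the replicate block. Each of its control IP libraries was below each input library, which held for Bmpr2 as well and for 10.8% of all genes tested. The margin was slight, at 10.64 CPM in control IP 1 against 10.66 in Input 2 for Id2. For Bmpr2 it was 18.98 CPM in control IP 2 against 19.34 in Input 2. The log2 fold change of Id2 was -1.13 (SE 0.55, edgeR adjusted p = 0.265), and with the replicate block it was called lower (-1.22, SE 0.36, edgeR adjusted p = 0.0431). Over the other alternatives the adjusted p of Id2 ran from 0.0634 without a filter on low counts to 0.548 without Input 1. The block raised the number of genes called in this comparison from 78 to 636 higher and from 29 to 553 lower. Bmpr2 was at -0.96 (SE 0.48, adjusted p = 0.276) and Acvr1, whose control IP libraries lay above the input as for 12.2% of all genes, at 0.90 (SE 0.44, adjusted p = 0.264), both by edgeR. Smad1 (-0.13, adjusted p = 0.888) and Smad5 (0.11, adjusted p = 0.886) had the smallest changes by edgeR.

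Levels of different genes were compared per kilobase of the transcript with the longest 3′ UTR. In the input Id3 stood first, at 32.39 ± 15.98 CPM per kb (SD, n = 3), with a range of 21.6 to 50.8 that overlapped no other gene of the 9. Bmpr1a (14.98 ± 2.81), Smad4 (13.4 ± 4.82), Smad5 (8.71 ± 3.02), Id2 (7.58 ± 2.65) and Id1 (4.95 ± 5.45 CPM per kb) followed, and the ranges of neighbours in this order overlapped. Smad1 (3.21 ± 0.740 CPM per kb), Bmpr2 (1.74 ± 0.279) and Acvr1 (1.61 ± 0.276) were last, and Smad1 did not overlap with either of those 2. In Roquin IP the order was Id3 (1693 ± 153.0 CPM per kb), Id1 (609.1 ± 274.0), Bmpr1a (339.8 ± 73.6) and Id2 (100.7 ± 48.3), with Smad4 at 19.4 ± 0.178. Id1 and Bmpr1a overlapped, while the lowest Id2 library, at 48.0 CPM per kb, was above every library of Smad4. Together Id1, Id2 and Id3 took 0.178% to 0.256% of the reads of a Roquin IP library, against 0.00812% to 0.0098% with beads alone and 0.00516% to 0.0102% of the lysate reads.

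The rest of the pathway was followed in a list of 74 genes, 31 of which passed the count filter. This list was drawn up from pathway knowledge with the results of the 9 genes known, and 25 of its genes had no count in any library. Ligand genes had few or no reads in these libraries: 12 of 18 had no count, including Bmp2, Bmp4, Bmp6 and Bmp7, and Tgfb1 was the only one tested. Of the extracellular antagonists only Twsg1 was tested, and 6 of 10, with Nog, Chrd and Grem1 among them, had no count. Id4, the remaining Id gene, had 1 count in all libraries together, and the inhibitory Smad6 had 41.

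Over control IP, 3 of the 31 genes were higher in Roquin IP and 0 lower, against 3.76% higher and 0% lower among all genes tested, and the median log2 fold change was 0.05 against -0.12. edgeR at an unadjusted p under 0.05 counted 4 higher and 1 lower, and DESeq2 called 3 higher and 0 lower. Of all genes tested, the first counted 759 higher and 204 lower, and the second 475 and 6. The 3 list genes called were Rgmb, which encodes a BMP co-receptor, Smurf2, which encodes a ubiquitin ligase of SMADs and receptors, and Ctdsp2, which encodes a phosphatase known to act on SMADs. With library size alone 1 of the 31 was higher and 10 lower. Of all 9567 genes tested, 257 were then higher and 3694 lower, and their median log2 fold change was -0.96.

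Rgmb was at 23.4, 24.9 and 35.7 CPM in Roquin IP. Control IP had 8.51, 5.87 and 10.2 CPM, and the input 2.03, 1.97 and 2.48, from 5 counts in each library. The 3 groups did not overlap. Its log2 fold change was 1.77 over control IP (SE 0.37, edgeR adjusted p = 0.0104) and 3.70 over the input (SE 0.45, edgeR adjusted p = 9.28e-05), and the first of these calls ended without Roquin IP 3 (0.131) or control IP 2 (0.0813) and with library size alone (0.0834).

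Ctdsp2 was at 456.3, 194.3 and 109.9 CPM in Roquin IP. Control IP had 64.8, 50.3 and 25.5 CPM, and the input 51.6, 22.1 and 18.8. Replicate 1 was the highest in each group. It was higher over control IP by 2.44 (SE 0.53, edgeR adjusted p = 0.0133), or 1.71 and not called without Roquin IP 1 (0.0930), and likewise not called without the second (0.0582) or the third (0.0529) control library. Over the input it was higher by 3.03 (SE 0.55, edgeR adjusted p = 0.00338), by 2.30 without Roquin IP 1 and by 3.62 without Input 1. Smurf2, at 86.6 ± 27.5 CPM in Roquin IP against 34.9 ± 1.14 in control IP (SD, n = 3), had a log2 fold change of 1.31 (SE 0.32, edgeR adjusted p = 0.0290). That call ended without Roquin IP 1 (0.177), Roquin IP 3 (0.135) or any of the control libraries (0.0531, 0.132 and 0.0919 for replicates 1, 2 and 3), and with library size alone (0.242).

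Over the input, 2 of the 31 genes were higher, Rgmb and Ctdsp2, and 1 was lower, where 5.45% and 2.79% of all genes tested were, so the shares of the list were near those of all genes. The median log2 fold change was 0.26 against -0.01 over all genes. The lower gene was Zfyve16, which encodes an endosomal SMAD-binding protein, at 10.76 ± 4.203 CPM in Roquin IP and 30.2 ± 5.18 in the input (SD, n = 3). Its log2 fold change was -1.49 (SE 0.42, edgeR adjusted p = 0.0424), and it did not pass without Roquin IP 1 (0.152), Roquin IP 3 (0.178), control IP 2 (0.0531) or any of the input libraries (0.0603, 0.133 and 0.0923 for replicates 1, 2 and 3). With the replicate block 4 were higher and 1 lower, with Smurf2 (0.88) and Tgfbr2, a TGF-beta receptor gene (0.97), added, both named after their values were seen. The block also raised the calls among all 9567 genes tested, to 956 higher and 769 lower.

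None of the 31 genes was called by edgeR in control IP against the input, where 0.815% of all genes were higher and 0.303% lower. At an unadjusted p under 0.05, 3 of the 31 were higher and 1 lower, and 1036 and 912 of all 9567 genes tested. Of the 31, Rgmb was the nearest to a call (1.93, SE 0.45, edgeR adjusted p = 0.0511). DESeq2 called it higher on the beads (1.91, adjusted p = 0.0117), as did edgeR without a filter on low counts (1.96, adjusted p = 0.0268). The replicate block called Rgmb (1.89, edgeR adjusted p = 0.0134) and Fkbp1a (0.63, 0.0483) higher and Tcf4 (-0.67, 0.0423) lower, likewise named after their values were seen. Among all genes tested the block called 636 higher and 553 lower. None of the 3 tested E protein genes, Tcf3, Tcf4 and Tcf12, was called in Roquin IP against control IP. Their log2 fold changes there lay between -0.16 and 0.12. With library size alone Tcf12 and Tcf3 were called lower (both at -0.98), where the median of all 9567 genes tested was -0.96 and 3694 were lower.

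**Figure D4:**
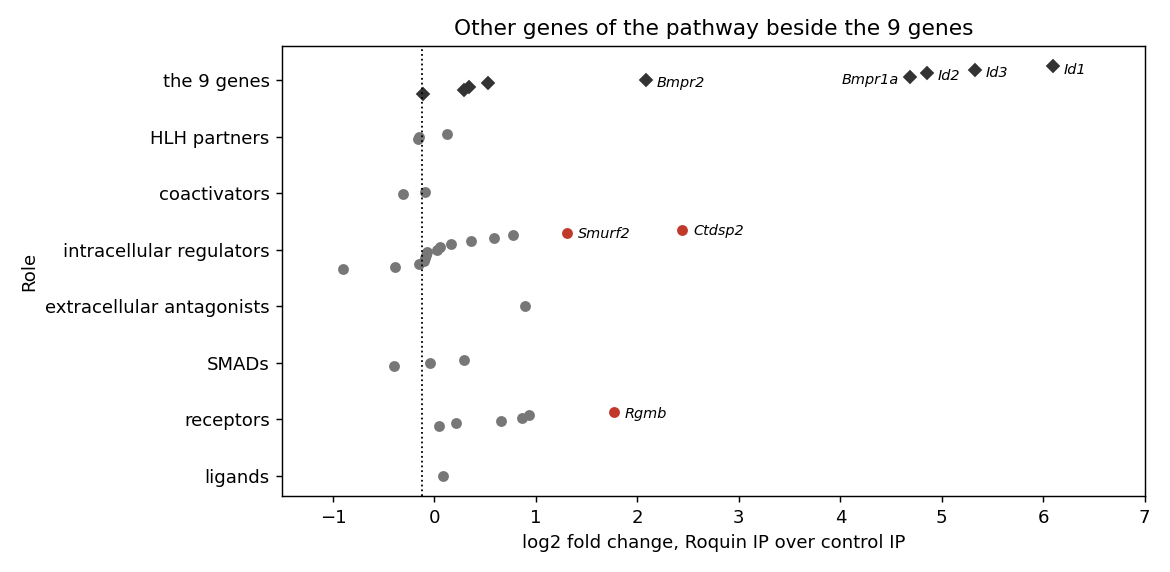
log2 fold change of Roquin IP over control IP for the 31 tested genes of the pathway list by role (circles, red where called) and for the 9 genes (diamonds); HLH stands for helix-loop-helix and the dotted line marks the median of all genes tested, -0.12. Rgmb, Smurf2 and Ctdsp2 lie between 1.31 and 2.44, below Id1, Id2, Id3 and Bmpr1a.

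Among 9558 other genes, those whose log2 CPM over the 9 libraries was most like that of Id1 were Dnajb1 (Pearson's r = 0.992), Socs1 (0.987), Ap1s3 (0.977), Tigd5 (0.976) and B4galt5 (0.976). The closest to Id3 were Zfp408 (0.993), Rybp (0.993) and B4galt5 (0.992), and the closest to Id2 were Fbxo11 (0.972), Mll5 (0.972) and Cenpf (0.968). Within the 9 genes, r was 0.969 between Id1 and Id3, 0.982 between Id3 and Bmpr1a and 0.783 between Id1 and Id2. These values describe 9 libraries that fall into 3 groups and whose same-numbered members deviate together, and all the genes named in this paragraph have log2 fold changes over control IP of 2.74 or higher.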

How the data were processed

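The deposited table gave raw counts, the number of reads per gene per the file headers, in 9 libraries. Per the submitters' processing notes the tools included CASAVA 1.8.2, DESeq 1.8.3 and BWA, named without their roles. The sources used here give neither the build and annotation nor the read filters and the handling of strand. The authors' ratio of Roquin IP to control IP and their p-value (not stated whether adjusted, and not used here) were deposited beside the counts. Of 27947 entries 7480 had no symbol and were not used, and 6312 of the 20467 genes had no count.

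Counts were fitted with edgeR 4.0.16 in R 4.3.3 (TMM factors, filterByExpr with a minimum count of 10, glmQLFit with group as the only term, all 9 libraries); the SE is the log2 fold change over the root of its F. Alternatives were RLE factors, library size alone, no filter, DESeq2 1.42.0, the replicate number as a block, and leaving out each library. On simulated data for Roquin IP against control IP with 9567 genes, 90.0% of genes changed 4-fold and 100% of those changed 16-fold were recovered. No libraries were duplicates (chi-square per degree of freedom 13.9 to 117.0 within groups). Same-numbered libraries correlated in their deviations from group means (r = 0.152 to 0.58 in 9 pairs, -0.433 to -0.019 in 18 others), which is where the pairing comes from. Deviations cancel within a group, so positive values in the first set make the second negative on average.

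The members, gene lists and tests were chosen with earlier results of these data known. Named were all 9 members, list genes called in any comparison, and the genes most like Id1 (5), Id2 (3) and Id3 (3) by Pearson's r of log2 CPM (prior count 2). In Python 3.11.15, stem-loops were searched in the longest 3′ UTR of the 9458 tested genes with one (8772 genes matched by symbol, 738 by a RefSeq synonym). The summed level of the lymphocyte markers is not reported here.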

Additional observations from a re-analysis of the deposited data

How the results depend on the processing

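Id1, Id2, Id3 and Bmpr1a were called higher in both Roquin IP comparisons under each of the 14 alternatives; their log2 fold changes over control IP ran from 5.27 to 6.44, 4.00 to 5.25, 4.49 to 5.38 and 3.88 to 4.78. With library size alone 3694 genes were lower in Roquin IP over control IP (0 with TMM factors), 259 were higher and 2659 lower over the input, 10 were lower in control IP against input, and 11 and 7 genes of the pathway list were called in the Roquin IP comparisons over control IP and over input. Sign changes under library size alone were those of Acvr1 (-0.56), Smad1 (-0.50) and Smad5 (-0.30) over control IP and of Smad1 (-0.52), Smad4 (-0.21) and Smad5 (-0.0903) over the input; in control IP against input, leaving out 1 library put Smad1 between -0.28 and 0.063 and Smad5 between -0.0769 and 0.43. Without a filter 21 genes were lower over control IP, 416 lower over the input, and 335 higher and 229 lower in control IP against input, with 1 gene of the list called. DESeq2 gave 6, 535, and 398 and 390, with 1 gene of the list. The replicate block gave 11 lower over control IP, 956 higher and 769 lower over the input, and 636 and 553 in control IP against input; it called 1 of the 9 genes there (Id2) and 5 and 3 genes of the list over the input and in control IP against input, and changed no other call of the 9 genes than those of Id2 and Smad5. Leaving out 1 library gave 0 to 3 genes lower over control IP, 298 to 679 higher and 30 to 452 lower over the input, and 0 to 188 higher and 0 to 88 lower in control IP against input; of the list, 0 to 3, 2 to 4 and 0 to 1 genes were called, and of the 9 genes 4 to 5 in each Roquin IP comparison. The cause of these shifts was not tested. The stem-loop core was in 15.3% of genes when any annotated transcript was searched. Low input counts limit the fold of Id1 over the lysate.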

Other observations

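The stem that the Id 3′ UTRs share was followed across all genes, after it had been noticed in these data, as a description without a test. Each of the 64 possible triloops was searched on 6 uninterrupted Watson-Crick pairs in the 9458 longest 3′ UTRs, and each set of genes was described by the share called higher in Roquin IP over control IP. TAT stood first, with 54 of 262 genes (20.6%) and a median log2 fold change of 0.37, and TGT, the loop of the Tnf and Bmpr1a elements, second with 45 of 251 (17.9%) and 0.33. CGG (4 of 24 genes, 16.7%), CAT (22 of 171, 12.9%) and TAG (16 of 130, 12.3%) came next. All genes with a 3′ UTR had 3.80% and -0.12. Most of the 64 loops were above that share: at ranks 32 and 33, GAT had 7.14% and TTG 6.71%. The genes with a TAT stem had longer 3′ UTRs than all genes (median 2499 against 1397.5 bases), as did those with other loops. Among these were TGT (2568 bases, 17.9% of genes higher), CAT (2576 bases, 12.9%), TGC (3063 bases, 11.3%), TTT (3115 bases, 5.91%), TTC (2988 bases, 4.17%) and CGA (3382 bases, 3.57%). How the share depends on length was not tested. Among 3′ UTRs over 900 bases, 49 of 237 genes with the TAT stem (20.7%) were higher, against 4.97% of all 6159 such genes. This class is not matched for length, as the medians were 2641 bases with the stem and 2111 in all. Among 3′ UTRs of 400 to 900 bases, 5 of 24 genes with the stem (20.8%) were higher, against 2.19% of all 1868. Id1, Id2 and Id3 are among those 5. The stem was noticed in these genes and the range of lengths takes them in, so nothing is read from that share. In control IP against input, 4 of the 262 were called, and 105 of the 9458.

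The share was 15.6% with 5 pairs and 23.8% with 7, 18.8% in 3′ UTRs that hold no CDE core, 19.4% in genes of the deposited class without a CDE, and 19.7% without Id1, Id2 and Id3. The genes with a TAT stem and the largest changes included, in the class without a CDE, Tcf7l2, Csf3, Id1, Id3, Clk1, Id2, Usp53, which encodes a ubiquitin peptidase family protein (log2 fold change 4.81), and Zbtb43, which encodes a zinc finger protein (4.58). Rc3h1, which encodes Roquin-1, had both a TAT stem and a predicted conserved CDE. So did Nfkbiz, Icos and Ppp1r10, at log2 fold changes of 5.01, 4.35 and 3.85.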
